A study of Mus musculus with 20 samples.

Results

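Amino acid transporters of the solute carrier (Slc) families 1, 3, 6, 7, 36, 38 and 43 were described in mouse embryonic stem cells (ESCs) with raised Klf5 and in E4.5 embryos given Klf5 siRNA. Protein-coding genes whose symbol places them in these families were kept after the Ensembl identifiers of both count tables were matched to mouse symbols. This gave 63 members of 30265 genes, of which 29910 had a symbol and 355 had none. The members fall into 7 genes of Slc1, 2 of Slc3, 21 of Slc6, 16 of Slc7, 4 of Slc36, 10 of Slc38 and 3 of Slc43. Among them Slc7a6os carries a matching name although it is a separate gene beside Slc7a6 whose protein takes part in nuclear import of RNA polymerase II, and its values are not those of a carrier.

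The study measured polyadenylated RNA in 20 libraries to ask how Klf5, a zinc finger transcription factor of the early embryo, bears on embryonic and extra-embryonic fate. ESCs derived from C57BL/6J mice overexpressed Klf5 in 2 libraries and green fluorescent protein (GFP) in 2 libraries. Both kinds were grown with LIF on irradiated mouse embryonic fibroblast feeders, in Knockout DMEM with added non-essential amino acids and L-glutamine. Single preimplantation embryos, whose donor strain the labels spell C57BL/5J, received an siRNA against Klf5 in 6 cases and a scramble siRNA in 10 cases. All 16 embryos were cultured in KSOM with bovine serum albumin and were taken at embryonic day 4.5. The labels give no promoter or clone for the overexpression, and do not say whether ESC replicates came from separate cultures, so p-values in ESCs measure the spread between these libraries only. ESC libraries were made with a TruSeq-based protocol and embryo libraries with SMARTseq-V4, so levels in the 2 materials are set side by side and not tested against each other.

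Amino acids cross the plasma membrane through carriers with overlapping substrates. Slc7 light chains such as Slc7a5 (LAT1) and Slc7a8 (LAT2) are held at the membrane by a heavy chain, Slc3a2 (CD98), and exchange large neutral amino acids such as leucine against others such as glutamine. Sodium-coupled carriers, Slc1a5 (ASCT2) and Slc38a2 (SNAT2) among them, load cells with glutamine and other small neutral amino acids, and Slc7a1 (CAT1) carries arginine and lysine. In the mouse blastocyst, uptake of leucine and arginine by the outer trophectoderm is known to feed the growth kinase mTORC1 around implantation.

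Depth was 34643548 to 37482730 estimated counts in Klf5 ESCs and 26775554 to 36915769 in GFP ESCs. It was 14945994 to 23367493 in Klf5 siRNA embryos and 14701630 to 24939712 in scramble embryos. On unscaled library totals, a floor of 3 counts is 0.0800 to 0.0866 CPM in Klf5 ESCs and 0.0813 to 0.112 CPM in GFP ESCs. It is 0.128 to 0.201 CPM in Klf5 siRNA embryos and 0.120 to 0.204 CPM in scramble embryos, and it covers counting error only. CPM, the usual per-library unit, sets a gene's counts against the size of its library, and in the values that follow library sizes are scaled by TMM. On that scale the floor shifts by library: 3 counts of Slc1a2 were 0.218 CPM in Klf5 siRNA embryo 2. Klf5 itself stood at 942 and 882 CPM in Klf5 ESCs, against 80.5 and 70.8 CPM in GFP ESCs. In embryos it ranged from 80.8 to 543 CPM after Klf5 siRNA and from 382 to 592 CPM after scramble siRNA. The embryo labelled Klf5 siRNA 1 held 543 CPM, inside the scramble range, so its Klf5 level goes against its label, and calls are also given without it. Summed trophectoderm markers, 8 genes including Cdx2 and Krt8, reached 182 to 2398 CPM in Klf5 siRNA embryos and 2091 to 8433 CPM in scramble embryos, with 6 of the 8 falling and none at 0 in all embryos of a group. Inner cell mass markers summed to 288 to 569 CPM in Klf5 siRNA embryos and 245 to 635 CPM in scramble embryos, with 1 of 8 rising and 1 falling. Primitive endoderm markers summed to 551 to 791 CPM in Klf5 siRNA embryos and 602 to 873 CPM in scramble embryos, with 2 of 8 falling. Of all genes tested in embryos 7.74% were called as falling and 12% as rising. Mitochondrial transcripts took 2.45% to 10.3% of counts in Klf5 siRNA embryos and 4.34% to 18.5% in scramble embryos. Every scramble library also carries a lower library number than any Klf5 siRNA library, so the siRNA and the order of the libraries cannot be told apart.

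The measured breadth of the set was close in the paired groups. Of 63 members, 56 had at least 1 count in each of the 2 Klf5 ESC libraries and in each of the 2 GFP ESC libraries. Between 36 and 43 members had a count in Klf5 siRNA embryos, and between 37 and 44 in scramble embryos. Slc6a5, a glycine transporter, and Slc7a12 were at 0 in all 20 libraries. Members together took 0.227% to 0.230% of counts in Klf5 ESCs and 0.194% to 0.202% in GFP ESCs. The groups did not overlap, which carries little weight with 2 libraries each, and other gene sets were not compared. The share was 0.0499% to 0.121% in Klf5 siRNA embryos, with a median of 0.0670%, and 0.0837% to 0.174% in scramble embryos, with a median of 0.126%. On the scaled CPM used for the tests the ESC sums were 2163 and 2269 with Klf5 and 2065 and 2023 with GFP. The embryo sums ran from 581 to 1225 after Klf5 siRNA and from 819 to 1310 after scramble siRNA. The distance between groups therefore depends on the scaling in both materials.

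Levels per transcript length were computed as TPM, in which counts are divided by transcript length and every library has the same sum, to put members in order within a library. Slc3a2, the CD98 heavy chain, led in ESCs with 378 ± 51.5 TPM in Klf5 ESCs and 357 ± 26.7 TPM in GFP ESCs (SD, n = 2 each). Slc7a5 had 153 ± 0.35 TPM in Klf5 ESCs and 135 ± 1.51 TPM in GFP ESCs, where it came next. Slc38a10 had 155 ± 17.4 TPM in Klf5 ESCs and 106 ± 17.3 TPM in GFP ESCs, and Slc1a5 had 137 ± 27.5 TPM in Klf5 ESCs and 83.8 ± 16.4 TPM in GFP ESCs. In GFP ESCs the ranges of Slc38a10 (93.8 to 118 TPM) and Slc1a5 (72.2 to 95.4 TPM) overlapped, so these neighbours do not differ beyond their spread, whereas Slc3a2 and Slc7a5 stood clear of them. After Slc6a8, a creatine carrier (92.2 ± 2.97 TPM in Klf5 ESCs and 67.7 ± 3.30 TPM in GFP ESCs), the next carriers in GFP ESCs were Slc38a2, the taurine carrier Slc6a6, Slc38a6 and the glutamine carrier Slc38a3, at 29.5 to 41.6 TPM.

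In embryos Slc6a8 and Slc43a3, whose human counterpart carries purine nucleobases, had the highest means. Slc6a8 had 53.3 ± 17.4 TPM in Klf5 siRNA embryos (SD, n = 6) and 131 ± 32.6 TPM in scramble embryos (SD, n = 10). Slc43a3 had 64.0 ± 64.5 TPM in Klf5 siRNA embryos and 68.3 ± 38.4 TPM in scramble embryos, and its range overlapped that of Slc6a8 in both groups. Slc7a6 (y+LAT2), another light chain of CD98, had 24.2 ± 5.07 TPM in Klf5 siRNA embryos and 53.7 ± 15.0 TPM in scramble embryos. Slc38a6 (30.7 ± 14.1 TPM in Klf5 siRNA embryos and 48.7 ± 23.0 TPM in scramble embryos) followed, and Slc43a3, Slc7a6 and Slc38a6 overlapped in range. Slc3a2, first in ESCs, had a median of 10.0 TPM in Klf5 siRNA embryos and 19.3 TPM in scramble embryos. Slc6a13 (GAT2), a GABA and taurine carrier with a mean of 25.8 TPM in Klf5 siRNA embryos and 32.6 TPM in scramble embryos, had at most 0.647 TPM in Klf5 ESCs and 1.25 TPM in GFP ESCs. The order among members, and any ratio between genes, depends on the transcript length used. With the median length of all coding transcripts, Slc7a6 averaged 118 TPM in Klf5 siRNA embryos and 256 TPM in scramble embryos, Slc43a3 231 TPM in Klf5 siRNA embryos and 240.1 TPM in scramble embryos, and Slc6a8 59.9 TPM in Klf5 siRNA embryos and 145 TPM in scramble embryos. With that length Slc6a6 averaged 356 TPM in Klf5 ESCs and 284 TPM in GFP ESCs, next below Slc3a2, where the length used here gave 46.0 TPM in Klf5 ESCs and 36.3 TPM in GFP ESCs. Slc3a2 stayed first in ESCs under all 3 lengths tried. Members with a mean of at least 1 TPM numbered 30 in Klf5 ESCs, 29 in GFP ESCs, 22 in embryos with Klf5 siRNA and 25 with scramble siRNA.

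**Figure D1:**
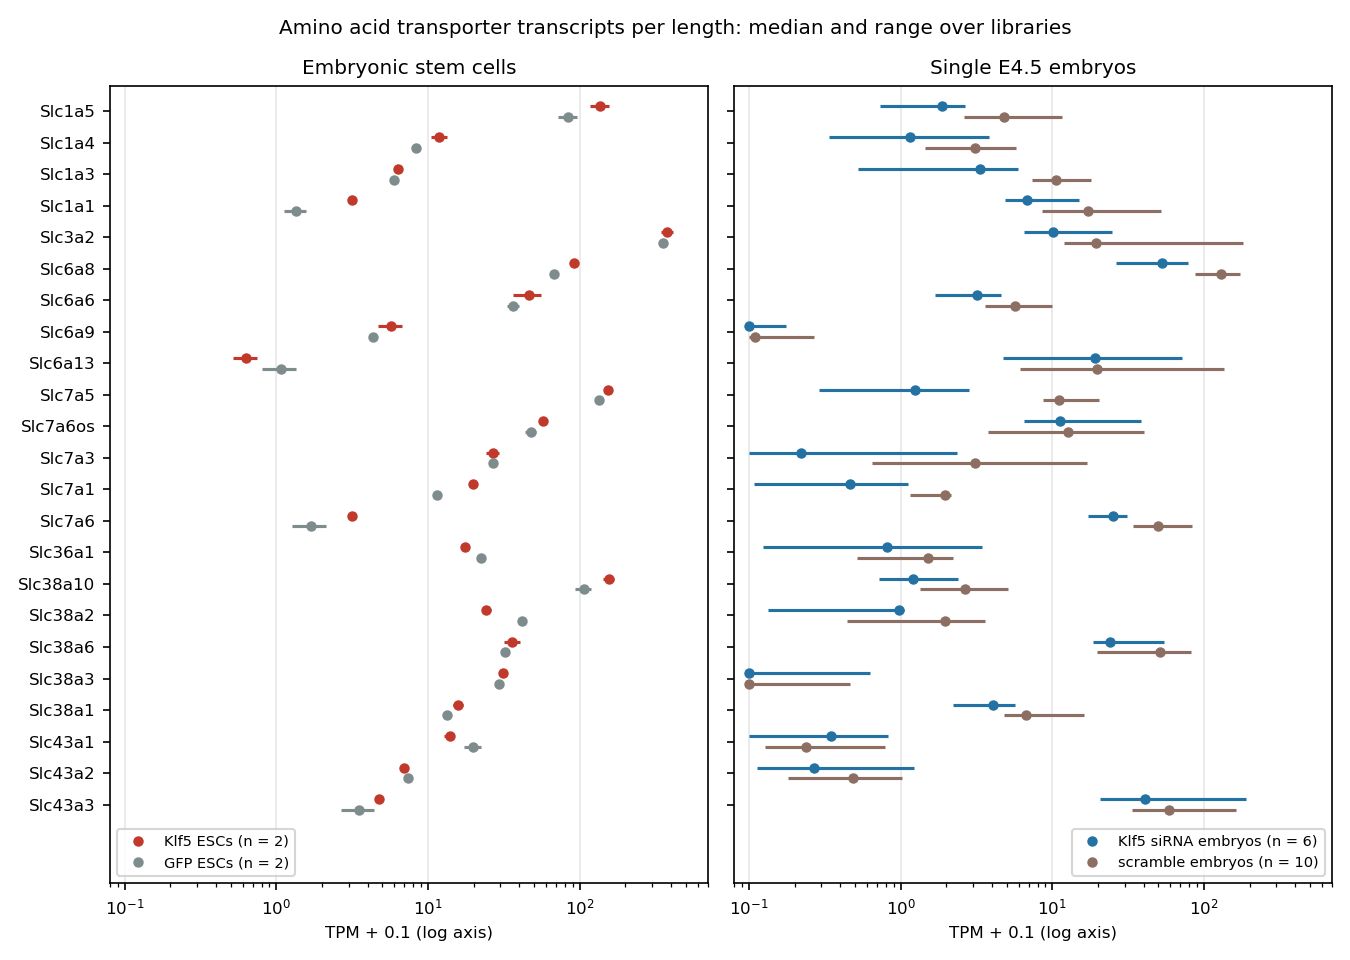
TPM plus 0.1 on a log axis for 23 members, as the median (point) and the lowest and highest library (line), with ESCs on the left and embryos on the right. Slc3a2 lies at the top of the ESC scale, followed by Slc7a5 and Slc38a10, and Slc6a8 has the highest median in both embryo groups. TPM shares out each library over all its transcripts, so distances between groups differ from those of the scaled CPM used in the tests.

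In ESCs with raised Klf5, Slc7a1 (CAT1), a carrier of arginine and lysine, rose, while Slc38a2 (SNAT2), a glutamine and alanine carrier of system A, fell. The sizes were 1.57-fold up and 1.88-fold down. The large light and heavy chain pair Slc7a5 and Slc3a2 had differences of 0.04 ± 0.12 and -0.05 ± 0.17 (log2 ± SE), with both groups interleaved. A low-count filter left 45 members for the test, which was edgeR's quasi-likelihood test with Benjamini-Hochberg adjustment over 15968 genes at a threshold of 0.05. The test called 3 members, of which Slc7a1 and Slc38a2 are described here, and the 3 calls are 6.67% of the 45, where 2.78% of all genes tested were called, 1.67% as rising and 1.11% as falling. Without adjustment 12 of the 45 had a p under 0.05, as did 3710 of all genes tested. The median log2 difference of the 45 was 0.10, and of all genes tested -0.0025. As the ESCs were bulk samples, fewer cells of a type and less RNA per cell cannot be told apart.

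Slc38a2 (ENSMUSG00000022462, chromosome 15, 96687392 to 96699730, minus strand, mm10) had 61.4 and 77.9 CPM in Klf5 ESCs and 130 and 132 CPM in GFP ESCs. The Klf5 libraries were both lower, with a log2 difference of -0.91 ± 0.14 (SE, edgeR adjusted p = 0.0325). Slc7a1 (ENSMUSG00000041313, chromosome 5, 148327410 to 148399904, minus strand) had 85.6 and 88.6 CPM in Klf5 ESCs and 58.8 and 52.4 CPM in GFP ESCs. The log2 difference was 0.65 ± 0.12 (SE, edgeR adjusted p = 0.0412). Neither call was kept when either GFP library was left out, but such fits hold 1 GFP library and cannot weigh single calls. The log2 differences then stayed at -0.92 to -0.91 for Slc38a2 and 0.57 to 0.73 for Slc7a1. Both calls were also lost with limma voom (limma adjusted p = 0.0524 for Slc38a2 and 0.0618 for Slc7a1). The Slc7a1 call was further lost with a gene length offset (edgeR adjusted p = 0.0521) and with the replicate number as a block (edgeR adjusted p = 0.0837). Feeder fibroblast markers, 8 genes including Col1a1 and Col1a2, summed to 1116 and 1122 CPM in Klf5 ESCs and to 616 and 778 CPM in GFP ESCs, and 1 of 7 tested, Col1a2, rose. Primitive endoderm markers summed to 167 and 369 CPM in Klf5 ESCs and to 67.1 and 77.6 CPM in GFP ESCs. Of these 8 markers 3 were called as rising, where 1.67% of all genes tested were, and all 8 had a positive log2 difference. Trophectoderm markers summed to between 273 and 634 CPM in Klf5 ESCs and between 867 and 1841 CPM in GFP ESCs, and none was called. The part of these cell type markers in the calls was not tested.

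**Figure D2:**
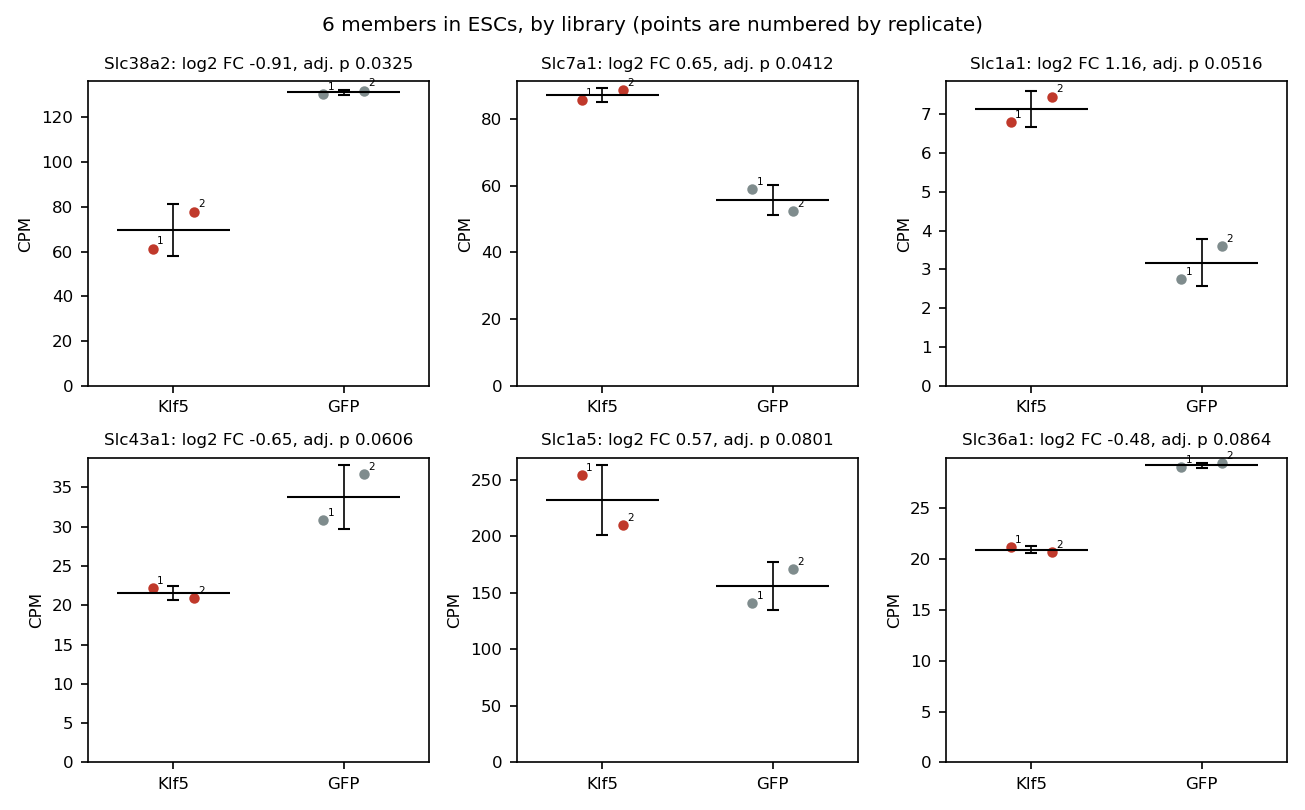
CPM per library of 6 members in ESCs, Slc38a2 and Slc7a1 past the threshold and 4 just outside it, Klf5 left and GFP right in each panel, with the mean as a long line and the SD as a bar (n = 2 each). In all 6 panels the 2 groups do not overlap. With 2 libraries per group this carries little weight. Members far from the threshold, such as Slc38a1 (edgeR adjusted p = 0.657) and Slc7a3 (edgeR adjusted p = 0.514), do not overlap either. The share among all genes was not counted.

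To show the sequence at the start of called members, promoter windows (250 bases before to 50 after the start) were taken from RefSeq on GRCm38.p6. Of the 63 members 45 had an entry, and of the 9 members called in either comparison 5 had one. Capitals mark the letters CCNCNCCC on either strand, a box of the type that Klf proteins bind, with overlapping matches counted. The windows shown are those of Slc38a2, which fell in ESCs (chr15:96699679-96699978, minus strand), of Slc7a1, which rose in ESCs (chr5:148399855-148400154, minus strand), and of Slc7a8, which fell in embryos (chr14:54781837-54782136, minus strand).
Slc38a2: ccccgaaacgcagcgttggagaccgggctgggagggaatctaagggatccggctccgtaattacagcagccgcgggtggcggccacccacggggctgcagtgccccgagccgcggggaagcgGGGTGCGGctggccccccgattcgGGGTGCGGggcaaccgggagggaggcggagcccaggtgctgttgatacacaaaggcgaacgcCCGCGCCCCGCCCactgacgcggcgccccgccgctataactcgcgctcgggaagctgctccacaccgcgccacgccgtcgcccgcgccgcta
Slc7a1: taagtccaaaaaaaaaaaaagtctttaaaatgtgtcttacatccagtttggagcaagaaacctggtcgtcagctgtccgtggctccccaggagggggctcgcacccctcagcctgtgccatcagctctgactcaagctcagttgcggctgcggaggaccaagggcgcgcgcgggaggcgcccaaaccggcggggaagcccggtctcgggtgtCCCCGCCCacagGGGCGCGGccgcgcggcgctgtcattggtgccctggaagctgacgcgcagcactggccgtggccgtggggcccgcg
Slc7a8: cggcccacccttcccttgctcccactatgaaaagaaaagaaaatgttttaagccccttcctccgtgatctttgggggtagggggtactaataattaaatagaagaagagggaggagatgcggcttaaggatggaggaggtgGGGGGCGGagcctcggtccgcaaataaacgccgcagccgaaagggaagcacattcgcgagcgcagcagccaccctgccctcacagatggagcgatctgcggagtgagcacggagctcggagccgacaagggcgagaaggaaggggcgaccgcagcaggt
These windows hold 4, 2 and 1 matches in the order given, and 73%, 65% and 58% of their bases are G or C. The letters occurred in at least 1 window of 31 of the 45 members (68.9%) and of 51.9% of 27025 genes, so a match is common. TGATGNAA, the core of an element that Atf4 binds, occurred on either strand in a window of 4 of the 45 members (8.89%) and of 4.51% of genes, and in no window of the 5 called members with an entry. These matches describe the letters only and were not related to binding.

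By family, Slc1 had no call by edgeR among its 6 tested members in ESCs, 2 of them with an unadjusted p under 0.05 and both of these called by DESeq2. Its glutamate carrier Slc1a1 (EAAC1) had 6.80 and 7.45 CPM in Klf5 ESCs and 2.74 and 3.60 CPM in GFP ESCs, a log2 difference of 1.16 ± 0.23 (SE, edgeR adjusted p = 0.0516). The glutamine carrier Slc1a5 had 254 and 210 CPM in Klf5 ESCs and 141 and 171 CPM in GFP ESCs, with a log2 difference of 0.57 ± 0.15 (SE, edgeR adjusted p = 0.0801). Both are just outside the threshold. Slc1a3 (GLAST), another glutamate carrier, had 8.68 and 9.98 CPM in Klf5 ESCs and 10.2 and 9.32 CPM in GFP ESCs.

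In Slc6, with 11 tested members, the creatine carrier Slc6a8 had 161 and 169 CPM in Klf5 ESCs and 135 and 132 CPM in GFP ESCs (log2 0.31 ± 0.10, SE, edgeR adjusted p = 0.143). Slc7 had 1 call, Slc7a1, among 12, and 10 of the 12 had a positive log2 difference. Slc7a6 had 6.64 and 7.53 CPM in Klf5 ESCs and 3.10 and 4.90 CPM in GFP ESCs, a log2 difference of 0.81 ± 0.27 (SE, edgeR adjusted p = 0.133). Slc7a8 (LAT2) had 9.60 and 10.9 CPM in Klf5 ESCs and 7.00 and 6.61 CPM in GFP ESCs. Neither passed the threshold. The arginine carrier Slc7a3 (CAT3) had 40.6 and 36.9 CPM in Klf5 ESCs and 42.9 and 42.8 CPM in GFP ESCs.

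Slc38 had 1 call, Slc38a2, among 9 tested members. The alanine and glutamine carrier Slc38a1 (SNAT1), of system A like Slc38a2, had 50.2 and 47.2 CPM in Klf5 ESCs and 45.7 and 45.3 CPM in GFP ESCs. Slc38a10 had 294 and 276 CPM in Klf5 ESCs and 199 and 230 CPM in GFP ESCs (log2 0.41 ± 0.12, SE, edgeR adjusted p = 0.107). No member of Slc3, Slc36 or Slc43 passed by edgeR; 1 of Slc36 and 1 of Slc43 had an unadjusted p under 0.05, and DESeq2 called both. Slc36a1 (PAT1), a proton-coupled carrier of small amino acids, had 21.2 and 20.7 CPM in Klf5 ESCs and 29.0 and 29.4 CPM in GFP ESCs (edgeR adjusted p = 0.0864). Slc43a1 (LAT3), which carries leucine and other large neutral amino acids, had 22.1 and 20.9 CPM in Klf5 ESCs and 30.9 and 36.7 CPM in GFP ESCs (edgeR adjusted p = 0.0606).

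In embryos given Klf5 siRNA, 5 members fell and 1 rose. Both LAT light chains fell most, Slc7a5 by 6.32-fold and Slc7a8 by 9.71-fold. The glutamate carrier Slc1a3 was 2.75-fold lower, the glutamine carrier Slc1a5 2.38-fold lower and the creatine carrier Slc6a8 1.70-fold lower. Slc38a11 was 5.37-fold higher. The filter left 35 members among 12385 genes, and the 6 calls are 17.1% of the 35, near the 19.8% of all genes tested that were called. Of the 35, 2.86% rose and 14.3% fell, where 12% of all genes tested were called as rising and 7.74% as falling. The median log2 difference of the 35 was -0.48, against -0.0065 for all genes tested. Without adjustment 13 of the 35 and 4112 of all genes tested had a p under 0.05. Without the embryo labelled Klf5 siRNA 1 there were 5 calls, all among these 6, and with the mitochondrial share as a covariate 5 calls, 3 of them among these 6. Those fits called 2400 of 12788 genes and 2142 of 12385 genes, in that order. Of the markers given above, 6 of trophectoderm and 2 of primitive endoderm fell in the same embryos. The part of these cell type markers in the member calls was not tested.

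Slc7a5 (ENSMUSG00000040010, chromosome 8, 121881150 to 121907694, minus strand) ranged from 0.728 to 9.82 CPM with a median of 5.04 CPM in Klf5 siRNA embryos, against 19.9 to 54.4 CPM with a median of 35.1 CPM in scramble embryos. All 6 Klf5 siRNA embryos, including the embryo labelled Klf5 siRNA 1 at 2.84 CPM, lay below all 10 scramble embryos. How many of all genes tested separate likewise was not counted, for Slc7a5 or for the called members below. The log2 difference of Slc7a5 was -2.66 ± 0.44 (SE, edgeR adjusted p = 0.000429), and -2.55 without the embryo labelled Klf5 siRNA 1. Slc7a8 (ENSMUSG00000022180, chromosome 14, 54722209 to 54781946, minus strand) ranged from 0.112 to 2.40 CPM with a median of 1.40 CPM in Klf5 siRNA embryos, and from 4.79 to 39.6 CPM with a median of 9.17 CPM in scramble embryos. The groups did not overlap, though scramble embryos 2 and 3, at 35.2 and 39.6 CPM, were well above the other 8, which reached 11.7 CPM. Its log2 difference was -3.28 ± 0.66 (SE, edgeR adjusted p = 0.00182). Both genes passed in all 28 alternative fits, with log2 differences from -2.97 to -2.25 for Slc7a5 and from -3.72 to -2.71 for Slc7a8; the last value of each pair came with the mitochondrial share as a covariate.

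Slc1a5 (ENSMUSG00000001918, chromosome 7, 16781340 to 16798274, plus strand) ranged from 2.11 to 7.72 CPM with a median of 5.99 CPM in Klf5 siRNA embryos, and from 7.82 to 16.7 CPM with a median of 11.9 CPM in scramble embryos. The groups lay close without overlap, and the log2 difference was -1.25 ± 0.34 (SE, edgeR adjusted p = 0.0147). Of 28 alternative fits it was lost with the gene length offset (-0.93, edgeR adjusted p = 0.0634) and with the replicate block (edgeR adjusted p = 0.0990). Slc1a3 (ENSMUSG00000005360, chromosome 15, 8634124 to 8710764, minus strand) ranged from 1.12 to 14.6 CPM with a median of 10.2 CPM in Klf5 siRNA embryos, and from 12.0 to 33.9 CPM with a median of 23.2 CPM in scramble embryos. Here 4 of the 6 Klf5 siRNA embryos were below every scramble embryo, and the log2 difference was -1.46 ± 0.43 (SE, edgeR adjusted p = 0.0227). With the mitochondrial share as a covariate Slc1a3 no longer passed, at -0.98 (edgeR adjusted p = 0.240), nor with the gene length offset (edgeR adjusted p = 0.0540), nor in the 12 embryos of the replicate block, with the block (edgeR adjusted p = 0.0939) or without it.

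Slc6a8 (ENSMUSG00000019558, chromosome X, 73673150 to 73682502, plus strand) ranged from 93.0 to 275 CPM with a median of 172 CPM in Klf5 siRNA embryos, and from 180 to 401 CPM with a median of 321 CPM in scramble embryos. Of the 6 Klf5 siRNA embryos 3 lay inside the scramble range, and the log2 difference of -0.76 ± 0.25 (SE, edgeR adjusted p = 0.0338) was lost in 14 of 28 alternative fits, among them the fit without the embryo labelled Klf5 siRNA 1 (-0.78, edgeR adjusted p = 0.0556). Slc38a11 (ENSMUSG00000061171, chromosome 2, 65316430 to 65364034, minus strand) ranged from 4.04 to 41.5 CPM with a median of 8.31 CPM in Klf5 siRNA embryos, and from 0.214 to 7.88 CPM with a median of 1.70 CPM in scramble embryos. Of the 6 Klf5 siRNA embryos 3 were above all scramble embryos, and Klf5 siRNA embryo 3 held the 41.5 CPM. The log2 difference was 2.43 ± 0.72 (SE, edgeR adjusted p = 0.0224); without Klf5 siRNA embryo 3 it was 1.69 and no longer passed (edgeR adjusted p = 0.114). It was also lost with the mitochondrial covariate (edgeR adjusted p = 0.171) and with the replicate block (edgeR adjusted p = 0.0583).

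**Figure D3:**
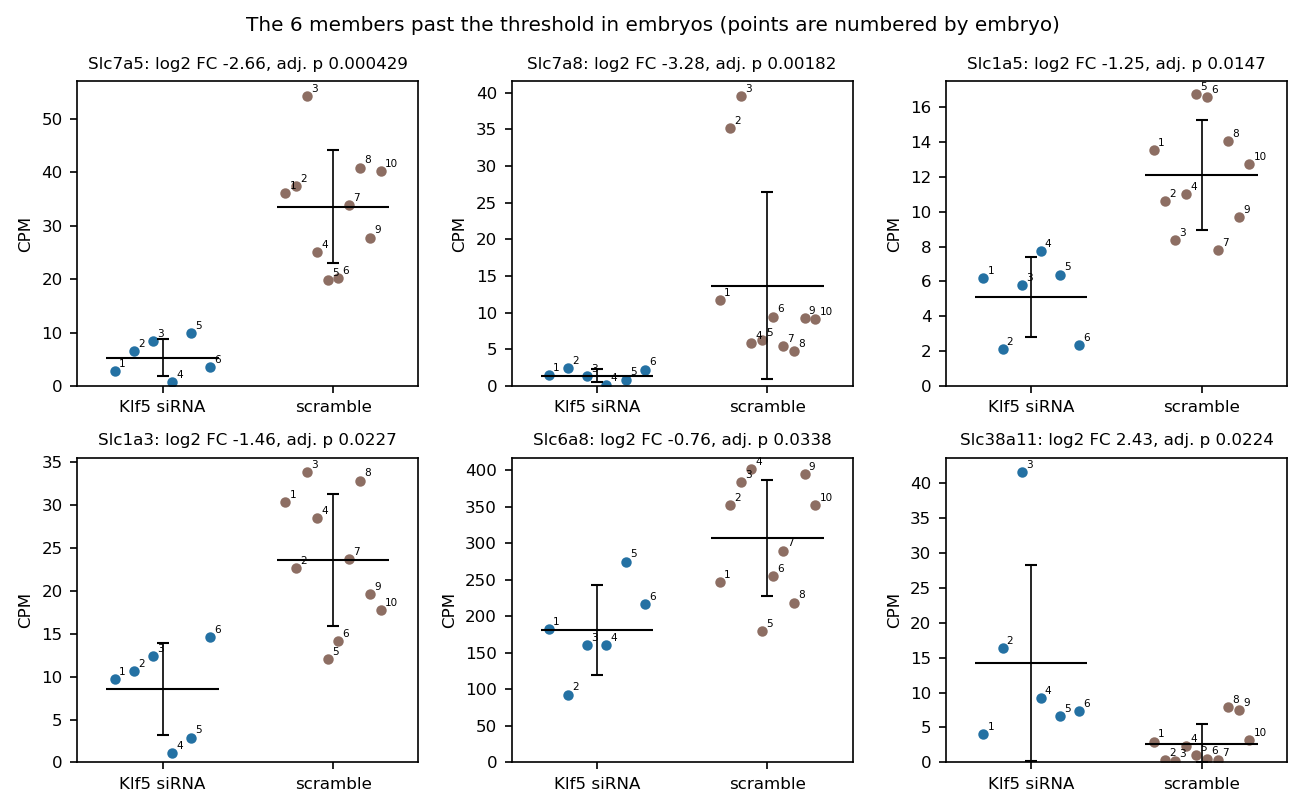
CPM per embryo of the 6 members past the threshold in embryos, Klf5 siRNA (n = 6) left and scramble (n = 10) right in each panel; points are numbered by embryo, the long line is the mean and the bar the SD. Slc7a5, Slc7a8 and Slc1a5 show no overlap between groups, while Slc1a3, Slc6a8 and Slc38a11 do. The 6 were picked by their adjusted p in these same embryos, and the share without overlap among all genes was not counted.

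Just outside the threshold, and lower after Klf5 siRNA, were Slc7a3 (CAT3) and Slc7a1 (CAT1), both carriers of arginine and lysine. Slc7a3 ranged from 0 to 7.26 CPM with a median of 0.345 CPM in Klf5 siRNA embryos, and from 1.13 to 30.8 CPM with a median of 6.43 CPM in scramble embryos. Slc7a1 ranged from 0.0560 to 8.88 CPM with a median of 2.84 CPM in Klf5 siRNA embryos, and from 4.16 to 16.3 CPM with a median of 10.7 CPM in scramble embryos. In both genes 5 of the 6 Klf5 siRNA embryos were below every scramble embryo, with log2 differences of -2.62 ± 0.94 for Slc7a3 (SE, edgeR adjusted p = 0.0559) and -1.58 ± 0.59 for Slc7a1 (SE, edgeR adjusted p = 0.0633). Slc7a6 ranged from 77.1 to 158 CPM in Klf5 siRNA embryos and from 109 to 193 CPM in scramble embryos, a log2 difference of -0.56 ± 0.21 (SE, edgeR adjusted p = 0.0666). Slc7a15, about as near the threshold, was higher instead, by a log2 difference of 2.04 ± 0.78 (SE, edgeR adjusted p = 0.0711). Its levels were low, at 0.655 to 4.59 CPM in Klf5 siRNA embryos and 0.0302 to 1.67 CPM in scramble embryos. Per length Slc7a6 was 7.36 to 104 times Slc7a5 in Klf5 siRNA embryos, with a median of 28.8, and 2.51 to 7.79 times in scramble embryos, with a median of 4.67. In ESCs the same ratio was 0.0197 to 0.0203 with Klf5 and 0.00854 to 0.0150 with GFP.

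Slc3a2 (ENSMUSG00000010095, chromosome 19, 8706882 to 8723369, minus strand), the heavy chain that Slc7a5, Slc7a6 and Slc7a8 share, did not pass in embryos. It ranged from 14.2 to 38.8 CPM with a median of 22.4 CPM in Klf5 siRNA embryos, and from 18.3 to 176 CPM with a median of 29.6 CPM in scramble embryos. Scramble embryos 5 and 6 held 176 and 116 CPM and the other 8 at most 43 CPM; these embryos also had the lowest mitochondrial shares of their group, at 4.34% and 5.48%. The log2 difference was -1.12 ± 0.48 (SE, edgeR adjusted p = 0.109), -0.31 without those embryos (edgeR adjusted p = 0.440) and -2.07 with the mitochondrial share as a covariate (edgeR adjusted p = 0.00108). Per length, Slc7a5 was 0.0199 to 0.271 times Slc3a2 in Klf5 siRNA embryos, with a median of 0.0896, and 0.0585 to 1.53 times in scramble embryos, with a median of 0.627. In ESCs the ratio was 0.369 to 0.450 with Klf5 and 0.362 to 0.396 with GFP. The other heavy chain, Slc3a1 (rBAT), partner of the cystine carrier Slc7a9, ranged from 0 to 1.04 CPM in Klf5 siRNA embryos and from 0 to 6.49 CPM in scramble embryos.

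By family, 4 of 4 tested Slc1 members and 2 of 2 Slc3 members had a negative log2 difference in embryos, and 3 of 3 Slc43 members and 2 of 2 Slc36 members a positive one. Among these, the sign of Slc36a1 turned with limma voom (-0.43) and with the replicate block (-0.57), and the sign of Slc43a3 with the block (-0.0598) and the mitochondrial covariate (-0.13). Slc1 had 2 calls, Slc7 2 of 10, Slc6 1 of 6, Slc38 1 of 8, and Slc3, Slc36 and Slc43 none, with 1, 1 and 0 members at an unadjusted p under 0.05 in edgeR. Slc1a1, the Slc1 member with the highest TPM in scramble embryos, ranged from 21.9 to 49.5 CPM in Klf5 siRNA embryos and from 34.3 to 105 CPM in scramble embryos (edgeR adjusted p = 0.0884). Slc43a3 ranged from 57.5 to 428 CPM in Klf5 siRNA embryos and from 96.3 to 223 CPM in scramble embryos, the Klf5 siRNA embryos lying on both sides of the scramble range. Slc38a6 ranged from 56.5 to 114 CPM in Klf5 siRNA embryos and from 38.9 to 144 CPM in scramble embryos, and Slc36a3 from 1.41 to 8.95 CPM in Klf5 siRNA embryos and from 0.231 to 5.26 CPM in scramble embryos. The carrier Slc6a14 (B0,+), known for leucine uptake by the mouse trophectoderm, ranged from 0.471 to 21.0 CPM in Klf5 siRNA embryos and from 7.88 to 21.3 CPM in scramble embryos, with 3 of 6 Klf5 siRNA embryos under the scramble range (edgeR adjusted p = 0.534).

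**Figure D4:**
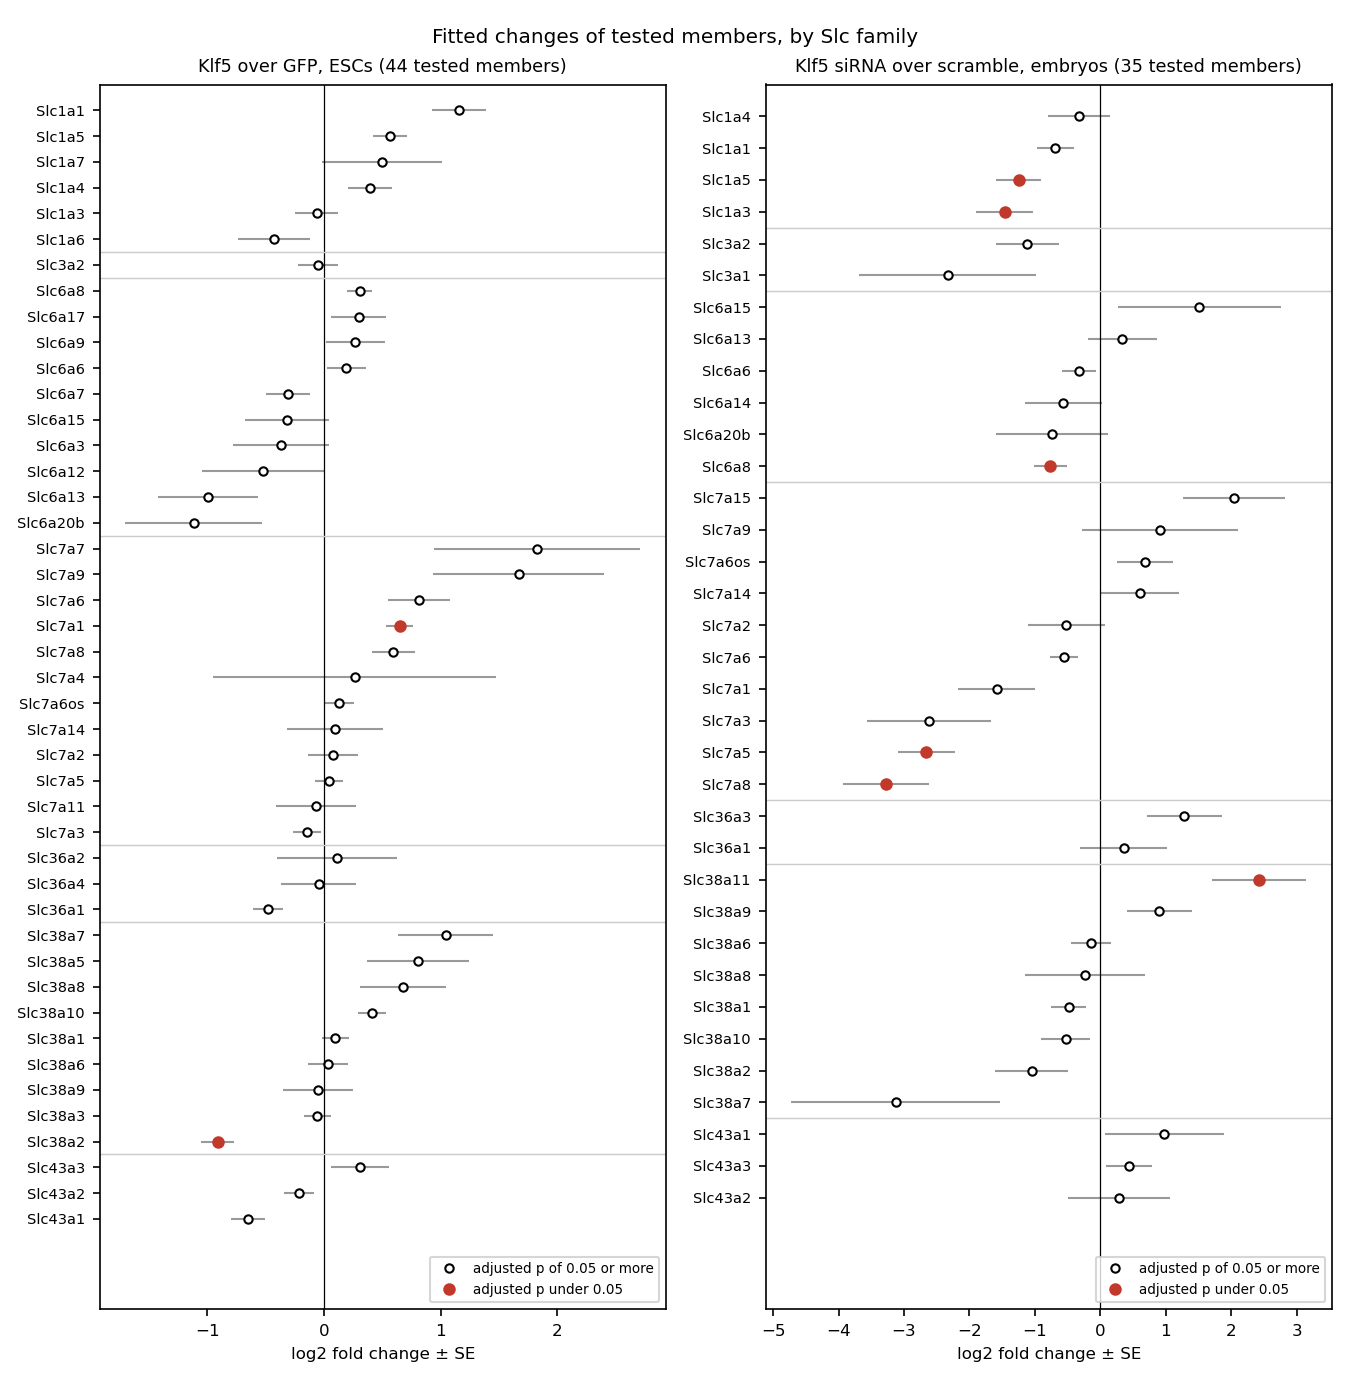
Log2 fold change and SE of tested members by Slc family, Klf5 over GFP in ESCs on the left (44 members) and Klf5 siRNA over scramble in embryos on the right (35 members); filled points are past the threshold. The calls shown in ESCs are Slc7a1 at 0.65 and Slc38a2 at -0.91 on the log2 scale, and the embryo scale is wider, down to -3.28 for a called member.

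The 2 comparisons share no library and 30 members were tested in both. By edgeR no member was called in both, while DESeq2 called Slc1a5 and Slc7a1 in both (DESeq2 adjusted p = 0.00868 and 0.000241 in ESCs, and 0.000674 and 0.0168 in embryos). DESeq2 called 1438 of 13887 genes in ESCs and 3454 of 14628 in embryos. The share of all genes called in both was not counted, so these calls do not set the members apart. Of the 30 members, 15 (50.0%) had a positive log2 difference with raised Klf5 and a negative one with Klf5 siRNA, where 27.4% of 11652 genes tested in both had that pair of signs. Another 6 had the reverse pair, 4 were positive in both and 5 negative in both, where 3051, 2655 and 2752 of the 11652 genes did. Among all tested members, 27 of 45 were positive in ESCs and 22 of 35 negative in embryos. The 50.0% therefore does not measure agreement gene by gene. Slc1a5 is an example of the first pair, with 0.57 in ESCs and -1.25 in embryos, as is Slc7a1 with 0.65 in ESCs and -1.58 in embryos. Slc7a8 stood at 0.59 in ESCs and -3.28 in embryos, and Slc6a8 at 0.31 in ESCs and -0.76 in embryos. Slc38a2 was negative in both, at -0.91 in ESCs and -1.05 in embryos. Each of these genes passed the threshold of edgeR in 1 of the 2 materials only, and the difference between materials was not tested.

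Members under the filter complete the account. Of 63, 30 were tested in both materials, 15 in ESCs only, 5 in embryos only (Slc3a1, Slc6a14, Slc7a15, Slc36a3 and Slc38a11) and 13 in neither. The 15 tested in ESCs only include Slc38a3 at 46.7 and 50.2 CPM in Klf5 ESCs and 50.1 and 50.6 CPM in GFP ESCs, against 0 to 1.60 CPM in Klf5 siRNA embryos and 0 to 0.483 CPM in scramble embryos. They also include the glycine carrier Slc6a9 (GLYT1), at 7.02 and 11.2 CPM in Klf5 ESCs and 7.52 and 7.59 CPM in GFP ESCs. The 13 tested in neither comprise the monoamine carriers Slc6a2 and Slc6a4, the glutamate carrier Slc1a2 and 10 others, none above 23 counts in any library except Slc6a4, which reached 161 counts in a Klf5 siRNA embryo and 40 in a scramble embryo.

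Related genes were described from 3 lists. Of other amino acid and peptide carriers outside the 7 families, 19 of 20 were found by symbol. None of 16 tested was called in ESCs, 1 with an unadjusted p under 0.05. In embryos 2 of 10 passed, both higher, where 12% of all genes tested were called as rising. Ctns, which exports cystine from lysosomes, had 162 CPM in Klf5 siRNA embryo 5 and 3.02 to 8.66 CPM in the other 5, against 0.584 to 6.78 CPM in scramble embryos. Without Klf5 siRNA embryo 5 its log2 difference was 0.72 and it no longer passed (edgeR adjusted p = 0.373). Slc16a10 (TAT1), which carries aromatic amino acids, had 0.344 to 10.6 CPM in Klf5 siRNA embryos and 0 to 1.32 CPM in scramble embryos, and its call was not kept in 12 of 16 fits that left out 1 embryo, with log2 differences of 2.55 to 3.45.

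Of 24 genes of the amino acid response, a set linked to the transcription factor Atf4, none was called in ESCs, 5 of them with an unadjusted p under 0.05. In embryos 4 of 21 fell and 1 rose, where 7.74% of all genes tested were called as falling and 12% as rising. Atf4 itself averaged 73.5 ± 21.8 CPM in Klf5 siRNA embryos and 125 ± 32.3 CPM in scramble embryos (edgeR adjusted p = 0.0297). The stress gene Nupr1 averaged 6.09 ± 8.90 CPM in Klf5 siRNA embryos and 60.1 ± 20.9 CPM in scramble embryos (edgeR adjusted p = 0.0021). Trib3, a pseudokinase gene induced by Atf4, was 8.91-fold lower, and Vldlr was 4.53-fold lower. Eif4ebp1, a translation repressor acted on by mTORC1, was 2.81-fold higher. With 1 embryo left out in turn, Nupr1, Trib3 and Eif4ebp1 passed in all 16 fits, while Atf4 was lost in 4 of them (edgeR adjusted p up to 0.0583) and Vldlr in 14 (up to 0.0825).

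Of 29 genes of lysosomal amino acid sensing by mTORC1, 1 fell in ESCs: Tsc1, a brake on mTORC1, averaged 61.3 ± 0.28 CPM in Klf5 ESCs and 112 ± 13.5 CPM in GFP ESCs (SD, n = 2 each, edgeR adjusted p = 0.0295). Without GFP replicate 1 its call was not kept (log2 -0.74), but that fit holds 1 GFP library and cannot weigh a single call. In embryos 4 of 27 rose and 2 fell, close to the 12% rising and 7.74% falling among all genes tested. Lamtor1, Lamtor2 and Lamtor4, subunits of the Ragulator scaffold on lysosomes, were 2.20-fold, 1.99-fold and 2.02-fold higher, and Rheb, the small GTPase that activates mTORC1, was 1.71-fold higher. Rragd, a Rag GTPase, averaged 29.9 ± 26.8 CPM in Klf5 siRNA embryos and 95.3 ± 26.3 CPM in scramble embryos, and Fnip1, a regulator of the Rag GTPases, averaged 4.30 ± 2.12 CPM in Klf5 siRNA embryos and 14.0 ± 11.8 CPM in scramble embryos. Of these 6, Rheb was lost in 10 of 16 fits that left out 1 embryo (edgeR adjusted p up to 0.118) and Fnip1 in 3 (up to 0.0602), and the other 4 passed in each. Slc38a9, the member known as a lysosomal arginine sensor upstream of the Rag GTPases, ranged from 2.59 to 24.2 CPM in Klf5 siRNA embryos and from 1.02 to 10.1 CPM in scramble embryos (edgeR adjusted p = 0.210).

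The members differed in how evenly they were counted over single embryos. Over 21 members with a mean of at least 5 CPM in scramble embryos, the SD as a percent of the mean was lowest for Slc7a6, at 30.7% after Klf5 siRNA and 16.5% after scramble siRNA. That filter used scramble embryos only, so the order after Klf5 siRNA depends on it. It left out Slc38a11, with means of 14.2 CPM after Klf5 siRNA and 2.63 CPM after scramble siRNA, and kept members that were low after Klf5 siRNA. The percentages for Slc6a6 and Slc6a8 came next in scramble embryos. They were 36.7% after Klf5 siRNA and 20.3% after scramble siRNA for Slc6a6, and 33.7% after Klf5 siRNA and 26.0% after scramble siRNA for Slc6a8. Slc38a7 had the highest percentage of the 21 in both groups, at 224% after Klf5 siRNA and 106% after scramble siRNA. It had no count in 4 of 6 Klf5 siRNA embryos, with a mean of 0.581 CPM, and none in 3 of 10 scramble embryos. Slc7a3 reached 188% after Klf5 siRNA and 91.1% after scramble siRNA, while Slc3a2 had 36.4% after Klf5 siRNA and 99.7% after scramble siRNA. The Slc7a3 mean after Klf5 siRNA was 1.51 CPM, with Klf5 siRNA embryo 6 at 7.26 CPM. Percentages at such low levels were not separated from missed counts. Slc6a13 ranged from 12.4 to 140 CPM in Klf5 siRNA embryos and from 11.5 to 162 CPM in scramble embryos.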

How the data were processed

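The 20 libraries hold estimated counts per gene, deposited by the authors as 1 table for ESCs and 1 for embryos. The submitters' processing notes name kallisto 0.46 and the build mm10. The transcript annotation and strand setting are not given in the sources used here. The estimated counts were rounded to whole numbers and each material was fitted alone with edgeR 4.0.16 in R 4.3.3: filterByExpr at a lowest count of 10, TMM library sizes, a robust quasi-likelihood F test, and Benjamini-Hochberg adjustment over all genes tested with a threshold of 0.05. Groups follow the labels. CPM use the TMM-scaled library sizes. TPM were computed from the counts and the median length of a gene's protein-coding transcripts in the GENCODE M21 basic set, a length chosen after the median over all coding transcripts was seen to rest on fragments.

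Alternatives were RLE and upper quartile scaling, DESeq2 1.42.0, limma 3.58.1 voom, other filters, a gene length offset, the replicate number as a block, each library left out, pairs of embryos left out and a mitochondrial covariate. For called genes of the related lists, each library was left out in turn, an alternative added after seeing the data. The steps were tested on simulated data. Members and lists were chosen with earlier results of these data known. Members named are those past the threshold, the highest per length and, in a family without a call, the smallest p; further members were named after their values were seen. No library pair of a group agreed within sampling noise. Exons of 14 members overlap a gene on the opposite strand, Slc1a1, Slc38a10 and Slc6a6 among them, and strand was not separated here. Some genes of these families are not reported here.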

Additional observations from a re-analysis of the deposited data

Results flagged for a closer look

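In 5 of 34 groups of member values, 1 embryo stood apart from the rest of its group by Dixon's criterion. Its chance rate of about 1 in 20 holds for independent normal values, while these groups hold unlogged CPM of the same 16 embryos. The 5 therefore do not measure an excess over chance. Slc38a11 had 41.5 CPM in Klf5 siRNA embryo 3, where the other Klf5 siRNA embryos had 4.04 to 16.3 CPM. Slc36a1 had 7.81 CPM in Klf5 siRNA embryo 5, where the others had 0.0621 to 2.74 CPM. Scramble embryo 5 held 105 CPM of Slc1a1, against 34.3 to 61.6 CPM in the other scramble embryos, and 223 CPM of Slc43a3, against 96.3 to 161 CPM. Slc36a3 had 5.26 CPM in scramble embryo 2, where the others had 0.231 to 2.81 CPM.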

How the results depend on the processing

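The count of called members in ESCs was 3, and stayed at 3 under RLE and upper quartile scaling. It was 8 with DESeq2, 1 with limma voom, 6 with no filter and 5 with a filter at a mean of 5 CPM. Calls among all genes moved too, from 444 of 15968 in the main fit to 1438 of 13887 with DESeq2. They were 115 of 15968 with limma voom, 870 of 21724 with no filter and 631 of 10681 with the CPM filter. Leaving out 1 library gave 0 to 4. With the replicate number as a block it was 2, and a block with crossed numbers, added after seeing the data because same-numbered libraries correlated at -0.108, gave 7 members and 1472 genes in all, against 155 with the numbers as labelled. In embryos the count was 6, and 6 under both other scalings. It was 10 with DESeq2, 10 with limma voom, 3 with the gene length offset, 2 with the replicate block on 12 embryos and 5 in those 12 without the block. Among all genes, 2447 of 12385 were called in the main fit, 3454 of 14628 with DESeq2 and 2620 of 12385 with limma voom. The length offset called 1872 of 12385, the block 902 of 11632 and the 12 embryos without it 1423 of 11632. Embryo numbers pair nothing, as same-numbered embryos correlated at -0.114 to 0.108 and 1 of 6 correlated best with its own number. Leaving out 1 embryo gave 5 to 8.

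The median of all genes moved to 0.10 with DESeq2, -0.12 with voom and -0.13 with the block in embryos. Direction was followed only in members named by rule (past the threshold, highest per length or smallest p of a family). Of these, 6 turned direction in at least 1 alternative fit. In ESCs, leaving out 1 library gave -0.164 to 0.0396 for Slc1a3, -0.22 to 0.26 for Slc38a6, -0.27 to 0.14 for Slc3a2 and -0.0305 to 0.116 for Slc7a5, and the length offset gave -0.0014 for Slc38a6 and -0.0013 for Slc7a5. In embryos Slc36a1 was -0.43 with voom, -0.57 with the block and -0.49 to 0.58 with 1 embryo left out. Slc43a3 was -0.0598 with the block, -0.13 with the mitochondrial covariate and -0.0547 to 0.638 with 1 embryo left out, and Slc38a6 was 0.0479 with the length offset. The causes were not tested.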

Other observations

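Slc6a4, the serotonin transporter, fell under the low-count filter in both materials and was picked out after its values were seen. It had 11.7, 5.65 and 3.70 CPM in Klf5 siRNA embryos 2, 4 and 5 and at most 0.0859 CPM in the other Klf5 siRNA embryos, against 1.21 CPM in 1 scramble embryo and 0 in the other 9.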
